A study of Mus musculus with 6 samples.

Results

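Claudins and connexins are the channel and barrier proteins of tight junctions and gap junctions. They were examined in digit tips of mice labelled K14-CreER;Ctnnb1 cKO (cKO here) and of wild-type mice (control here), 3 arrays per group, all from animals 8 weeks old. A gene was taken as a member if the array's annotation gave it alone to a transcript cluster (the probes read together as 1 feature) under a symbol of the form Cldn or Gja to Gje plus a number. This gave 40 of 28853 clusters, 21 claudins and 19 connexins, each a different gene, so that every member was measured by 1 cluster. Ctnnb1 encodes beta-catenin, which links cadherins to actin at adherens junctions and carries canonical Wnt signals. The Cre recombinase, active after an inducer, is driven by a promoter of basal epithelium such as epidermis and nail, whereas the RNA came from the whole digit tip with its dermis, bone, vessels, nerves and glands. Whether the control mice carried the Cre or a floxed allele, and how many animals gave each sample, are not given in the sources used here.

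Claudins are membrane proteins that assemble into the strands of tight junctions and set which ions and solutes pass between neighbouring cells. Some seal the gap and others form selective channels through it, and in epidermis the strands lie in the granular layer beneath the cornified layer. Connexins form channels that join the cytoplasm of adjacent cells, and keratinocytes use several of them in patterns that differ between layers and in wounded skin.

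All values are log2 signals relative to the median of the 3 controls, which the authors set to 0 for each cluster. They show differences between arrays but no absolute level, so that a bright gene cannot be told from one at background, levels cannot be compared between genes, and neither the tissue nor any cell type could be checked for presence. Differences are cKO minus control with limma's standard error, fitted over 20793 genes, and a gene was called at a Benjamini-Hochberg adjusted p under 0.05 over all of them. Limma called 403 genes, 1.94% of those tested (258 or 1.24% higher and 145 or 0.697% lower). Ctnnb1 read 0, -0.19 and 0.59 on the control arrays against -1.10, -0.87 and -1.06 on the cKO arrays, a difference of -1.14 ± 0.24 (limma adjusted p = 0.0284). That call ended when control replicate 1 or 3 or cKO replicate 1 or 3 was left out. The array of cKO replicate 1 stood apart in sex-linked genes, with Xist at -5.84 and Ddx3y at 8.08 against -0.39 to 0.08 and -0.22 to 0.01 on the other arrays. Control replicate 1 had the highest of the control values in 27 of the 40 members (67.5%), against 48.4% of all genes tested, and in array weights it counted least (0.384).

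The regions before the annotated start sites of 4 members are shown because these members carry the results below. Cldn17 was the called claudin, Cldn4 the lower claudin that the authors' deposited table also lists, and Gjb5 and Gjb6 the lowest and highest connexins. Each is the 250 bases before the start in RefSeq, build GRCm38.p6, written 5′ to 3′ on the gene's strand, which is the minus strand for all 4. Capitals mark TCF/LEF motifs (CTTTGAA or CTTTGAT or CTTTGTA or CTTTGTT on either strand), the type of site bound by the factors that recruit beta-catenin, and AP-1 motifs (TGACTCA or TGAGTCA on either strand).
Cldn17, chr16:88506979-88507228: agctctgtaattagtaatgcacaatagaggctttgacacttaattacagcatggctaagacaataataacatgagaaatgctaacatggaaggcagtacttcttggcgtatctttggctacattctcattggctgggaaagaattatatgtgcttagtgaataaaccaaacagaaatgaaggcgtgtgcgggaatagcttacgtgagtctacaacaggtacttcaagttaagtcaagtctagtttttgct
Cldn4, chr5:134946935-134947184: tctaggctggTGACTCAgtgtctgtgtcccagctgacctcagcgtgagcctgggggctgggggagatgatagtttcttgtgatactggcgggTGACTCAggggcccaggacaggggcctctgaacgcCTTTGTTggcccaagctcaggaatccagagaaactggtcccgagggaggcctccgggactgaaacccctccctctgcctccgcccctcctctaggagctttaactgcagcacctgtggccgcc
Gjb5, chr4:127358165-127358414: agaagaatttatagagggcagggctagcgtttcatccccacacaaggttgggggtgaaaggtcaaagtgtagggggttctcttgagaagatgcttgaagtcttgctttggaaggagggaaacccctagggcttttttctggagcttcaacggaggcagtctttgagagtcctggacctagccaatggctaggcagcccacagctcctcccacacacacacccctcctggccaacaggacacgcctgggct
Gjb6, chr14:57133612-57133861: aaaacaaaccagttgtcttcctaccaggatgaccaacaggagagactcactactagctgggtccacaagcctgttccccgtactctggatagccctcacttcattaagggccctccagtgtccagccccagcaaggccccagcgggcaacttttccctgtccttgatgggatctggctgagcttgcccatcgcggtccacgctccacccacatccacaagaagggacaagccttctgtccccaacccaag

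Of these, the Cldn4 region held 1 TCF/LEF motif, beginning 123 bases before the start, and 2 AP-1 motifs, beginning 240 and 158 bases before it. The regions of Cldn17, Gjb5 and Gjb6 held neither. Such regions were available for 28 of the 40 members, 17 claudins and 11 connexins. A TCF/LEF motif occurred in 14.8% of all 32851 promoters of this length and in 12.8% of the 39 member promoters, those of Cldn4, Cldn18, Gja6 and Gjb1. An AP-1 motif occurred in 4.46% of all promoters and in 3 of the 39, those of Cldn4, Cldn15 and Gja1. These counts describe letters in a window and not bound sites.

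Among the claudins, Cldn17 rose and no other member passed the test over all genes, 1 call in 21 against the 1.94% of all genes. Cldn17, which forms an anion-selective channel between kidney epithelial cells, read 0.03, 0 and -0.48 on the control arrays against 1.59, 1.12 and 1.52 on the cKO arrays. The groups were separated by more than 1 unit. The difference was 1.56 ± 0.23, a 2.95-fold rise (limma adjusted p = 0.00288), and it ranked 136 of 20793 genes from the highest. Without any 1 array it lay between 1.39 and 1.70, with limma adjusted p between 0.00291 and 0.032. Under the methods' t-test over all genes the adjusted p was 0.168. In the authors' deposited table Cldn17 has a signed fold of 2.95 and a corrected p of 0.0187, over a list already filtered on fold. Its cluster covers positions 88506052 to 88507223 of build mm9.

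Cldn8, which in kidney tightens the junction and partners Cldn4, had the lowest claudin difference. It read -0.73, 0.04 and 0 on the control arrays against -1.28, -0.93 and -2.18 on the cKO arrays. The groups did not overlap, but both were spread widely, with control replicate 1 near the highest cKO array. The difference was -1.23 ± 0.32 (limma adjusted p = 0.0842), with a 95% interval of -1.92 to -0.54. It passed limma's test when cKO replicate 2 was left out (-1.496, adjusted p = 0.0318) and with array weights (-1.28, 0.0145), and was -0.87 (0.325) without cKO replicate 3.

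Cldn4, a sealing claudin of the epidermal granular layer and of glands, read -0.05, 0 and 0.19 in the controls against -0.75, -0.50 and -0.80 in the cKO. Every cKO array lay below every control array. The difference was -0.73 ± 0.21, 60.1% of the control level (limma adjusted p = 0.119). The authors' deposited table gives it a signed fold of -1.66 and a corrected p of 0.0218, again over a list already filtered on fold. With array weights limma called it (-0.76, adjusted p = 0.0322). Cldn4 and Cldn17 were the 2 members in the authors' deposited list of significant clusters, which holds 2.36% of all clusters. That list was drawn from clusters passing a percentile filter, which kept 30 of the 40 members and 72.8% of all clusters.

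The other claudins known from skin and other epithelia did not pass. Cldn23 read 0, -0.26 and 0.10 in the controls against -0.40, -0.79 and -0.77 in the cKO, a difference of -0.60 ± 0.22 (limma adjusted p = 0.258). Cldn3, a sealing claudin of many epithelia, read 0.10, 0 and -0.26 against -0.64, -0.36 and -0.49 (-0.44 ± 0.21). In both genes the groups did not overlap, though the nearest arrays lay close together. Cldn1, whose loss in mice lets water escape through the epidermis, read -0.13, 0 and 0.31 against -0.32, -0.13 and -0.13, so that the groups came within 0.01 of each other and the difference of -0.26 ± 0.21 was near its error.

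Cldn6, a claudin of embryonic epithelia, read 0.48, -0.03 and 0 in the controls against 0.04, -0.13 and -0.01 in the cKO. Cldn7, found along the sides of epithelial cells, read 0.46, 0 and -0.24 against 0.03, 0.10 and 0.13, with cKO arrays inside the range of the controls. Cldn12, which lacks the PDZ-binding tail of most claudins, read 0.06, 0 and -0.45 against 0.08, -0.15 and 0.40. Of the 8 claudins in this list, which include Cldn8 and Cldn4, 6 had a difference below 0 (50.4% of all genes did). The list was chosen with earlier results of these data known. It leaves out Cldn17, which rose, and the channel claudins of epithelia that follow, so its counts do not describe epithelial claudins as a whole. In 5 of the 8 the groups did not overlap with the cKO lower (9.25% of all genes). Limma called 0 of the 8, and the methods' t-test 0. At an unadjusted p under 0.05 were 3 (37.5%), all lower, against 5.73% of all genes lower at that p.

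Unlike the channel claudin Cldn17, described above, the channel claudins Cldn2, Cldn15 and Cldn16 overlapped between the groups. Cldn2, a cation and water channel, read 0.66, 0 and -0.09 in the controls against -0.23, 0.15 and 0.46 in the cKO. Cldn15, a sodium channel of the intestine, read 0.67, -0.07 and 0 against 0.14, -0.08 and 0.11. Cldn16, needed for magnesium uptake in kidney, read 0.64, 0 and -0.04 against 0.11, 0.0041 and 0.53. In all 3 the highest control was replicate 1, and the differences were -0.06 ± 0.26, -0.15 ± 0.24 and 0.02 ± 0.25. Cldn10, annotated on the array under the older symbol Cldn10a and so outside the 21, differed by -0.41 ± 0.29.

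Claudins of endothelium, myelin and other sites did not pass either. Cldn5, the claudin of vessel endothelium, read 0.31, 0 and -0.08 in the controls against 0.48, -0.33 and 0.69 in the cKO, where its arrays spread more widely than the groups differed (0.20 ± 0.27). Cldn11, of myelin and of Sertoli cells, read 0.28, 0 and -0.03 against -0.16, -0.36 and -0.06. Its groups did not overlap, by a gap under 0.05, and the difference was -0.28 ± 0.21.

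Cldn14, of cochlea and kidney, read 0.49, 0 and -0.08 in the controls against -0.24, -0.31 and 0.05 in the cKO. Cldn18, of stomach and lung, read 0.26, 0 and -0.22 against -0.16, -0.03 and -0.27. Cldn19, of Schwann cells and kidney, read 0.38, -0.52 and 0 against -0.08, -0.33 and 0.21. All 3 overlapped between the groups. The remaining members Cldn9, Cldn13, Cldn20 and Cldn25 had differences between -0.28 and 0.20 and also overlapped. RefSeq now annotates Cldn25 of the mouse as a pseudogene (Cldn25-ps).

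Over the 21 claudins, 15 differences lay below 0 and 6 above, with a median of -0.17 against -0.0044 for all genes tested. Groups did not overlap, with the cKO lower, in 6 of the 21 (28.6%, against 9.25% of all genes), namely Cldn1, Cldn3, Cldn4, Cldn8, Cldn11 and Cldn23, and with the cKO higher in Cldn17 (4.76%, against 10.1%). At an unadjusted p under 0.05 were Cldn17 above 0 (background 6.73%) and Cldn8, Cldn4 and Cldn23 below 0 (background 5.73%), together 19.0% against 12.5%. The median was -0.05 without control replicate 1. For 17 of the 21 (81.0%, against 82.8% of all genes) the 95% interval lay within a 2-fold change either way. Cldn17, Cldn8, Cldn4 and Cldn23 were the exceptions.

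**Figure D1:**
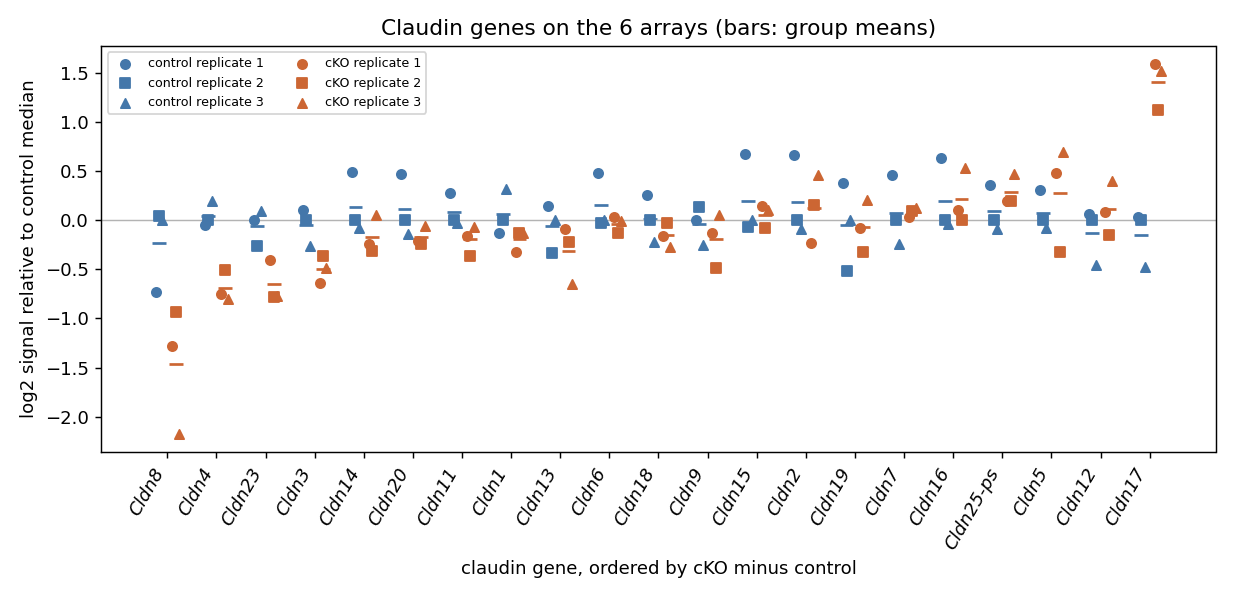
Log2 signal relative to the control median (vertical axis) of the 21 claudin genes on each array, with symbols for replicates and bars for group means. Cldn17 at the right has all 3 cKO arrays between 1.12 and 1.59, and Cldn8 at the left has them between -2.18 and -0.93, while most other claudins overlap between the groups.

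Among the connexins limma called 0 of 19, and the methods' t-test 0. At an unadjusted p under 0.05 were Gjb5 and Gjb6 (10.5%, against 12.5% of all genes). The 95% interval of each of the 19 lay within a 2-fold change either way (82.8% of all genes tested had such an interval).

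Of the connexins known from keratinocytes, Gjb5 had a difference below 0 and Gjb6 above 0, both without overlap between the groups. Gjb5, of keratinocytes and trophoblast, read 0.12, -0.07 and 0 in the controls against -0.63, -0.56 and -0.39 in the cKO, a difference of -0.54 ± 0.20 (limma adjusted p = 0.274).

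Gjb6, whose human mutations cause a nail, hair and palm skin disorder, went the other way. It read -0.04, 0 and 0.10 in the controls against 0.37, 0.56 and 0.62 in the cKO, a difference of 0.50 ± 0.20 or 1.41-fold (limma adjusted p = 0.331). Gja1, the most widespread connexin of skin, read -0.27, 0 and 0.01 against -0.22, -0.02 and -0.58, and its groups overlapped (-0.19 ± 0.22). Gjb2 lies on clusters shared with another annotation and is not a member.

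The vessel connexins had differences above 0 with overlapping groups. Gja4, of endothelium, read 0.03, 0 and -1.15 in the controls against -0.27, 0.04 and -0.0033 in the cKO, a difference of 0.29 ± 0.30. It rested on control replicate 3, without which it was -0.09. Gja5, of arterial endothelium, read -0.10, 0.56 and 0 against 0.61, 0.08 and 0.69 (0.31 ± 0.25), and Gjc1, of vessel muscle and heart, read -0.33, 0 and 0.58 against 0.10, 0.43 and 0.30 (0.19 ± 0.25).

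The glial connexins Gjb1 and Gjc3 overlapped between the groups. Gjb1, of Schwann cells, read 0.62, 0 and -0.26 in the controls against 0.34, 0.22 and 0.59 in the cKO. Gjc3, of myelinating glia, was the most variable member, at 0.58, 0 and -1.33 against 0.31, -0.83 and -0.46. Its SD over the controls was 0.98, and its difference of -0.07 ± 0.42 had the largest standard error of the 40.

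Connexins known from neurons, lens, retina and testis were read next. Gjd2, of neurons, read 0.63, 0 and -0.25 in the controls against 0.56, 0.22 and 0.36 in the cKO. The lens connexin Gja3 read 0.56, 0 and -0.13 against 0.36, 0.44 and 0.18. Neither separated the groups, and the differences were 0.25 ± 0.25 and 0.18 ± 0.24.

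Gja10, of the retina, read 0.57, 0 and -0.24 in the controls against -0.25, -0.15 and 0.17 in the cKO. Gja6, of testis and X-linked, read -0.14, 0.44 and 0 against -0.20, 0.21 and -0.14, so that cKO replicate 1 did not stand apart in it. The last members, Gjd3, Gjd4 and Gje1, had differences of 0.0008, -0.08 and -0.14 and overlapped.

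Over the 19 connexins, 10 differences lay below 0 and 9 above, and the median was -0.075. Without control replicate 1 the median was 0.12 and without cKO replicate 2 it was 0.11, so that its sign rested on single arrays. Groups did not overlap in 3 members with the cKO lower (15.8%, against 9.25% of all genes) and in 1 with the cKO higher (5.26%, against 10.1%).

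**Figure D2:**
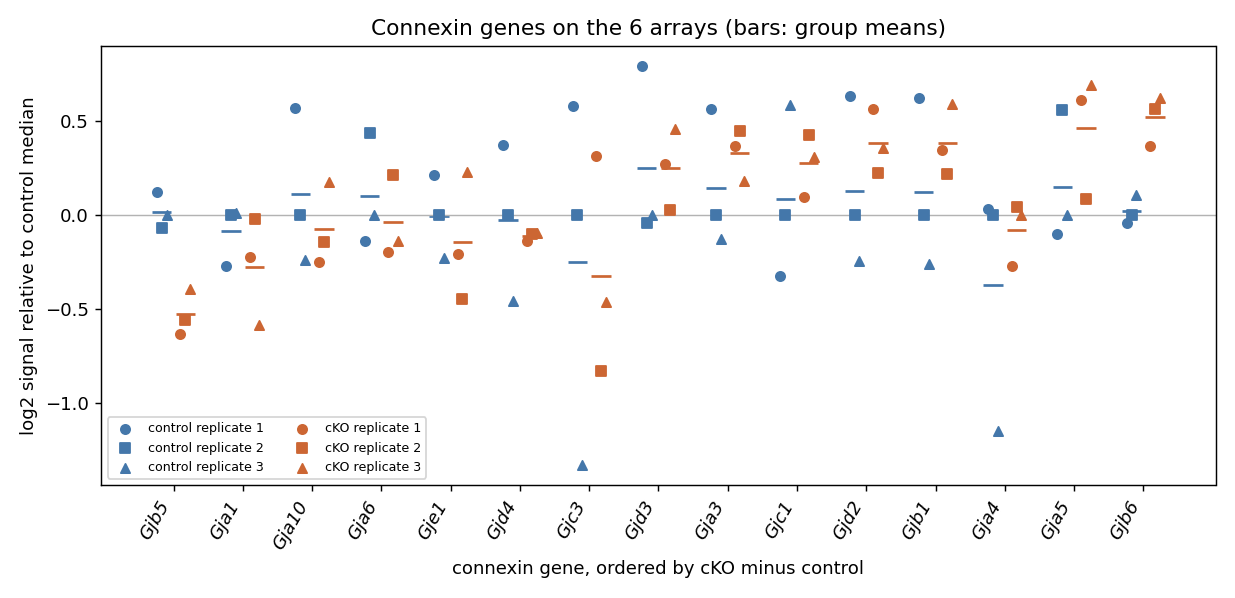
Log2 signal relative to the control median (vertical axis) of 15 of the 19 connexin genes on each array, with symbols for replicates and bars for group means. The groups do not overlap in Gjb5 at the left and Gjb6 at the right, and the low points of Gja4 and Gjc3 at -1.15 and -1.33 are control replicate 3.

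**Figure D3:**
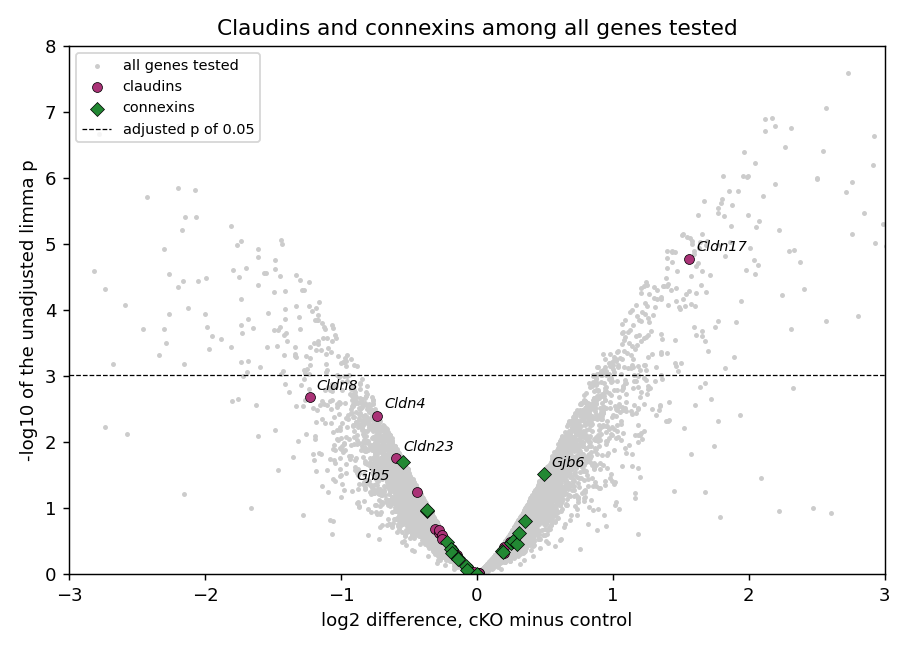
Log2 difference, cKO minus control (horizontal axis), against -log10 of the unadjusted limma p (vertical axis) for all genes tested in grey, claudins as circles and connexins as diamonds; the dashed line marks an adjusted p of 0.05, and 41 genes lie outside the axes. Cldn17 is the single member above the line, and the named points are the 6 members at an unadjusted p under 0.05.

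Several claudins are neighbours with no other protein-coding gene between them, by gene order in the RefSeq table of GRCm38.p6. Cldn17 and Cldn8, 53847 bases apart in build mm9 on chromosome 16, had differences of opposite sign, of which the first passed the test. Within each array Cldn17 minus Cldn8 was 0.76, -0.04 and -0.48 in the controls against 2.86, 2.05 and 3.70 in the cKO. On chromosome 5, Cldn4 and Cldn3 lie 39307 bases apart and both had differences below 0. Gjb6 on chromosome 14 is separated by Gjb2 from Gja3, which differed by 0.18 ± 0.24. Cldn6 and Cldn9 on chromosome 17, 140 bases apart, differed by -0.19 ± 0.22 and -0.15 ± 0.23. The pairs were described after their values were seen.

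**Figure D4:**
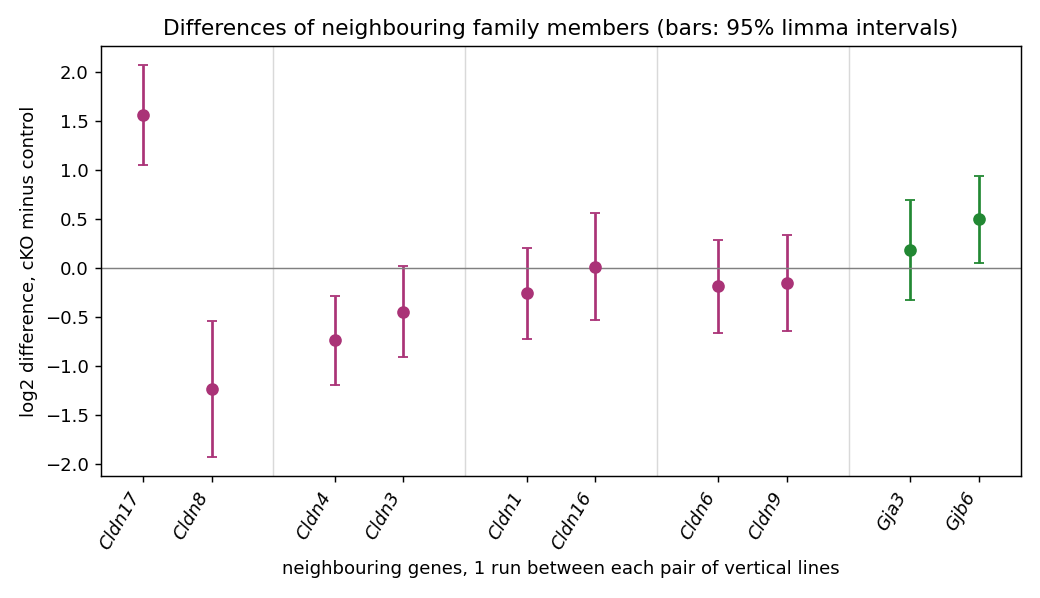
Log2 difference, cKO minus control (vertical axis), with 95% limma intervals as bars, for 5 sets of members that lie near each other, grouped between vertical lines; claudins are in purple and connexins in green. Cldn17 and Cldn8 lie on opposite sides of 0, and Gjb2 between Gja3 and Gjb6 is not plotted.

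The partners of these proteins were read in the same fit. The 32 junction partner genes hold the scaffold, receptor and polarity proteins of tight junctions and the pannexins. Limma called 0 of the 32, and the methods' t-test 0. At an unadjusted p under 0.05 were 6 (18.8%, against 12.5% of all genes). Their median was -0.13. Patj, a polarity scaffold, differed by 0.64 ± 0.24 (limma adjusted p = 0.287), Magi1, another scaffold, by 0.52 ± 0.21 (0.317) and Crb3, an apical polarity protein, by 0.50 ± 0.22 (0.364). Marveld2, the tricellulin of 3-cell contacts, differed by -0.57 ± 0.23 (0.332). In Patj, Magi1 and Crb3 the groups did not overlap, and in Marveld2 they did by a small margin. Over the 32 partners, groups did not overlap with the cKO higher in 4 (12.5%, against 10.1% of all genes). With the cKO lower they did not overlap in 2 (6.25%, against 9.25%).

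Markers of the cells a digit tip holds moved beside these genes, and their part in the results was not tested. In bulk tissue, fewer cells of a type and less RNA per cell cannot be told apart. Over all genes tested 1.24% were called higher and 0.697% lower, and 12.5% lay at an unadjusted p under 0.05. All 6 markers of wounded or stressed epidermis were called higher, with a list mean of -0.02 to 0.12 on the control arrays against 2.87 to 3.00 on the cKO arrays. Of 6 sebaceous gland markers 5 were called lower, with list means of -0.72 to 0.33 against -3.35 to -2.21. Of 5 markers of sweat gland and other simple epithelium 0 were called (1 at an unadjusted p under 0.05, 0 by the methods' t-test), and their mean was -0.10 to 0.06 in the controls against -0.57 to -0.22 in the cKO, lowest in cKO replicate 1.

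Beside the vessel members, all 6 endothelial markers had differences above 0 (median 0.65) and 0 were called. Of the 6, 4 were higher at an unadjusted p under 0.05, against 6.73% of all genes. Their mean was -0.39 on control replicate 3, against 0.13 on both other controls and 0.39 to 0.71 on the cKO arrays. On control replicate 3 Gja4 read -1.15, but Cldn5 read -0.08, Gja5 0 and Gjc1 0.58. Beside the glial members, the 6 Schwann cell and myelin markers had a mean of 0.39 on control replicate 1 and -0.28 to 0.10 on the other arrays, with 0 called (1 at an unadjusted p under 0.05). A high control replicate 1 was not particular to glial genes. Its mean was 0.52 for the channel claudins with Cldn10 and 0.32 for the connexins of neurons, lens and testis. It was -0.07 for connexins of keratinocytes, -0.13 for those of vessels and 0.10 for all genes tested. Of 6 basal keratinocyte markers 1 was called lower and of 5 suprabasal markers 2 were, against 0.697% of all genes. Of 6 bone markers 3 were called higher, against 1.24% of all genes. Of 5 skeletal muscle markers 0 were called (0 at an unadjusted p under 0.05).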

How the data were processed

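RNA of whole digit tips was hybridised to Affymetrix MoGene arrays, per the file headers (annotation release na31, build mm9); a kit for 3′ labelling is named in the labels' protocols. Per the deposited methods sheet, PLIER16 with quantile normalisation was run by the authors, and the log2 signals of each cluster were then shifted to a control median of 0. Other deposited tables give a signed fold score and p-values from an unpaired test, corrected after Benjamini and Hochberg, per the file headers. The authors' mean log2 values per group were not used here.

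The value table of the series was used (it differed from the workbook by at most 5e-05). All array columns had a sample. Of 28853 clusters, 22971 carried 1 gene; these were averaged to 20793 genes, with symbols updated through Entrez identifiers, which matched all 40 members. No filter on low values was applied. The test was limma 3.58.1 (R 4.3.3) on all 6 arrays, without covariates; a step with simulated data checked it. Samples are called biological replicates, but separate animals are not stated, so a p-value reflects only spread among samples, which may be technical. Having 3 arrays per group limits precision. Values per array are given for members called, at an unadjusted p under 0.05 or in a role list. Some connexins enter the counts and medians but are not reported here by name. Of the partners the 4 of smallest p are named. Members, lists and tests were chosen with earlier results of these data known. Alternatives were array centring, workbook values, the replicate block, array weights, robust variances, single clusters, the authors' percentile filter, the methods' t-test and leaving out each array; a fit over all clusters was added after the data were seen.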

Additional observations from a re-analysis of the deposited data

Results flagged for a closer look

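Gjb2, the connexin next to Gjb6 and mutated in human deafness and palm skin disorders, is annotated on 2 clusters together with the predicted gene Gm10871, so both stayed outside the comparison. They are given because the groups did not overlap, the cKO being higher, in data outside the comparison. Such a separation was found in 10.1% of all genes tested. Only clusters of Gjb2 with the cKO higher were looked for. A cluster shared by Dzip1 and Cldn10a, also outside the comparison, did not overlap either, with the cKO lower. The Gjb2 cluster on the minus strand read -0.11, 0.06 and 0 in the controls against 0.37, 0.44 and 0.55 in the cKO. The difference was 0.47 ± 0.19 (limma adjusted p = 0.372 over 28853 clusters). The Gjb2 cluster on the plus strand read 0.03, 0 and -0.64 against 0.61, 0.66 and 0.95, a difference of 0.94 ± 0.24 (limma adjusted p = 0.103). Which of the 2 annotations the signal belongs to is not known. This fit over all clusters was chosen after the data were seen.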

How the results depend on the processing

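Connexin and partner calls stayed at 0 under all 14 alternatives. The claudin count was 1, and 3 with array weights, 0 with the methods' t-test, 2 with the replicate block (Cldn8 joining at an adjusted p of 0.0188), and 1 to 2 without any 1 array. Over all genes the count of 403 became 828 with array weights, 13 with the methods' t-test and 192 to 403 without any 1 array. Ctnnb1 stayed between -1.31 and -0.91 without any 1 array, and its adjusted p was 0.258 under the methods' t-test at -1.14. The connexin median was 0.185 after the authors' percentile filter, which left fewer members, and -0.14 to 0.12 without any 1 array. The partner median was -0.055 with array weights, 0.11 after that filter and -0.125 to -0.061 without any 1 array. The numbers did not pair the samples (correlations of deviations 0.042, 0.138 and -0.085), and the block raised the count over all genes to 575. Of the 40 members 14 changed sign under some alternative, all with a difference of at most 0.29 either way. The values hold no signal over background, so members near background could not be set apart.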

Other observations

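The authors' percentile filter, rebuilt from the values, kept 30 of the 40 members and matched the deposited fold list in 1755 of 1755 clusters. It acts on values set to the control median, and keeps a cluster if all arrays of at least 1 group reach their array's 20th percentile. That percentile lay at -0.39 to -0.31 on the cKO arrays and -0.16 to -0.13 on the controls. The filter itself thus favours clusters that are higher in the cKO. The 10 members it removed all had a difference below 0 (10 of 25 such members, against 0 of the 15 above 0). Among them were Cldn8, Cldn23, Cldn3, Cldn13, Gja1, Cldn9, Gje1, Gjc3 and Cldn19. Cldn8, whose difference of -1.23 exceeds the authors' 1.5-fold limit, is therefore not in their fold list. Over all 28853 clusters 72.8% passed, but the same split by direction was not made over them. Whether the split is particular to these members is therefore not known.

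Cldn10a, with 2 clusters that read alike, was 0.13, -0.75 and 0 in the controls against -0.15, -1.003 and -0.70 in the cKO, lowest in replicate 2 of each group. A cluster shared by Dzip1 and Cldn10a differed by -0.40 ± 0.20. Its groups did not overlap, the cKO being lower, as in 9.25% of all genes tested. A cluster shared by Cldn22 and Wwc2 differed by 0.28 ± 0.26, and one shared by Zfp697 and Gja5 by 0.24 ± 0.31. The claudin-domain genes Cldnd1 and Cldnd2 differed by -0.16 ± 0.22 and -0.23 ± 0.30.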
